A study of Mus musculus with 3 samples.

Results

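The transcripts of SMAD proteins and of the proteins that brake SMAD signalling were compared in CD8+ T cells that had lost the type II TGF-β receptor and in CD8+ T cells that kept it. The group holds 10 genes, Smad2, Smad3, Smad4, Smad7, Smurf1, Smurf2, Pmepa1, Ski, Skil and Tgif1. Its members are all probe sets that the platform annotation assigns to exactly 1 of these symbols, which are 23 of 34945 probe sets with a single gene symbol, standing for 18193 genes. RNA was measured once per group on 3 Affymetrix mouse expression arrays. The first group was NK1.1+ CD8+ T cells of mice homozygous for a floxed Tgfbr2 allele and carrying CD4-Cre (NK1.1+ knockout, KO in the plots), and the second was NK1.1− CD8+ T cells of mice of the same genotype (NK1.1− knockout), all 15 to 17 days old. The third was CD8+ T cells of littermates with 1 floxed and 1 wild-type Tgfbr2 allele, which also carry CD4-Cre (control). The labels call the control cells NK1.1− in some places and total CD8+ cells in another, which does not settle how the control cells were gated. No array held NK1.1+ control cells alone. In NK1.1+ knockout against control cells, receptor loss and NK1.1 fraction therefore cannot be told apart. CD4-Cre acts from the thymocyte stage at which Cd4 is on and thus in the CD8+ as well as the CD4+ lineage. Pooling of animals for an array is not stated in the labels.

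TGF-β binds its type II receptor, which activates the type I receptor, and that kinase phosphorylates SMAD2 and SMAD3. These join SMAD4, enter the nucleus and switch genes on or off with other factors. Among the genes they switch on are inhibitors of the same pathway, which close a negative feedback loop: SMAD7 blocks the type I receptor and brings SMURF ubiquitin ligases to it, PMEPA1 keeps receptor-activated SMADs from the receptor complex, and SKI and SnoN (encoded by Skil) hold SMAD complexes in a repressed state. In T cells the pathway restrains activation and effector differentiation.

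The arrays differed in ways that bear on the values below. Each group is a single array, which leaves the variation between animals unknown and allows no test, and the number of arrays sets the precision. A value counts as measured at or above 10.3, the 95th percentile of 144 probe sets of sensory receptor, keratin-associated protein and crystallin genes. These include the Crybg genes, without which the level was 9.59. Values below the level of 10.3 were raised to it before a log2 difference was taken. The only Tgfbr2 probe set measured on all arrays read 1808 in NK1.1+ knockout, 1271 in NK1.1− knockout and 2634 in control cells. It may lie outside the deleted part of the gene and then checks nothing. The probe set assigned to Klrb1b and Klrb1c, which encodes NK1.1, read 1618 in NK1.1+ knockout, 52.7 in NK1.1− knockout and 7.09 in control cells. All 9 T cell markers on the array were measured in every group, with a summed value of 4455 in NK1.1+ knockout, 9813 in NK1.1− knockout and 14556 in control cells. Of 14 markers of monocytes, macrophages and granulocytes, 7 were measured in NK1.1+ knockout, 6 in NK1.1− knockout and 4 in control cells, with summed values of 8802, 313 and 246 in that order, and 7 (Itgam, Cd14, Mpo, Elane, Cebpa, Csf3r and C1qa) were below the level on every array. Csf1r alone read 7666 in NK1.1+ knockout, 54.5 in NK1.1− knockout and 30.5 in control cells. Of the other lists, 9 genes of NK cells or NK receptors summed to 5350 in NK1.1+ knockout, 2589 in NK1.1− knockout and 734 in control cells, with Ncr1 below the level throughout. Of these sums, Eomes, which encodes no receptor, gave 734 in NK1.1+ knockout, 2085 in NK1.1− knockout and 593 in control cells. The 9 B cell genes summed to 2640 in NK1.1+ knockout, 513 in NK1.1− knockout and 408 in control cells, with Cd79a, Pax5 and Blnk below the level throughout. The 8 dendritic cell genes summed to 1808 in NK1.1+ knockout, 577 in NK1.1− knockout and 499 in control cells, with Flt3, Siglech, Xcr1 and Cd209a below the level, and of 4 erythroid genes 0 were measured. Of the dendritic cell sums, H2-Aa gave 1517 in NK1.1+ knockout, 289 in NK1.1− knockout and 325 in control cells. The ratio of 3′ to 5′ signal of Actb, a sign of RNA quality, was 81.9 in NK1.1+ knockout, 12.3 in NK1.1− knockout and 6.02 in control cells, and that of Gapdh was 10.8 in NK1.1+ knockout, 26.7 in NK1.1− knockout and 17.8 in control cells. The spiked hybridisation controls had a geometric mean of 4498 on the NK1.1+ knockout array, 1786 on the NK1.1− knockout array and 1905 on the control array. The part of other cells, of RNA quality and of array scale in the values of the NK1.1+ knockout array was not tested. In such RNA of whole cell samples, fewer cells that express a gene and less RNA per cell cannot be told apart.

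As deposited, most members read lower in both receptor-deficient groups than in control cells, and Smad3 read higher. After the housekeeping scaling described below, 10 of 16 member probe sets were above control in NK1.1+ knockout and 2 of 16 in NK1.1− knockout cells. The counts that follow are as deposited. Of the 23 probe sets, 16 were measured on all 3 arrays, 2 on 1 array and 5 on none, and each of the 10 genes had at least 1 probe set measured on all arrays. In NK1.1− knockout against control cells, 10 of 18 measured member probe sets were at least 2-fold lower, where 5.96% of all 17256 measured probe sets were. Smad3, at least 2-fold higher, was the other call, against 6.98% of all probe sets (12.9% in either direction). The median log2 difference of the members was -1.03, beside 0.0027 over all measured probe sets. In NK1.1+ knockout against control cells, 6 of 18 were at least 2-fold lower, where 23% of 17967 probe sets were, and 0 were 2-fold higher, where 8.81% were (31.8% in either direction). The median was -0.93, beside -0.18 over all probe sets. Both comparisons use the same control array, so a high or low reading there enters both. The control array gave the highest value of the 3 for 15 of the 16 probe sets measured throughout, as it did for 39.0% of all 14655 probe sets measured throughout.

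**Figure D1:**
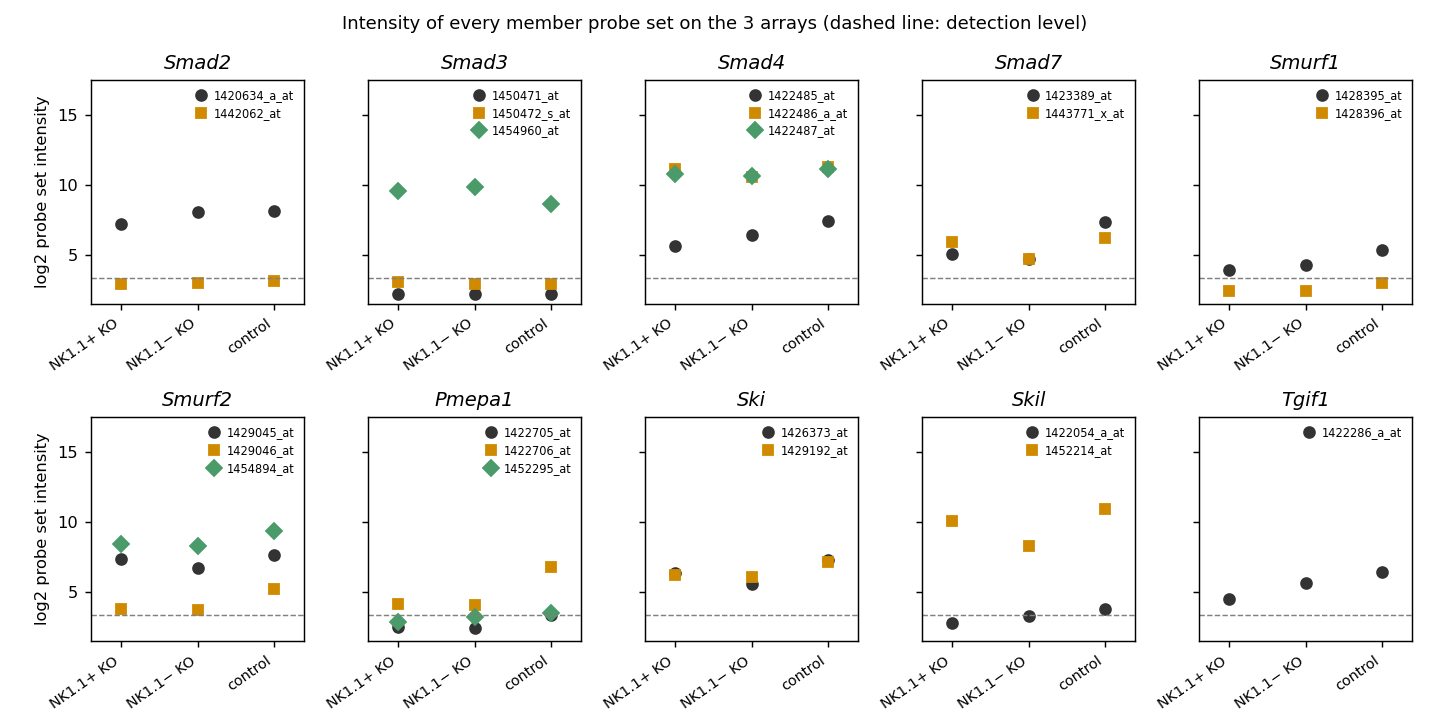
Log2 probe set intensity (vertical axis) of all 23 member probe sets on the NK1.1+ knockout, NK1.1− knockout and control arrays (horizontal axis), 1 panel per gene and 1 symbol per probe set, each point a single array. The dashed line is the detection level of 3.37. In 9 of the 10 genes the brightest probe set is highest on the control array, and for Smad3 it is lowest there.

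The scale of the NK1.1+ knockout array sets how much of its difference from control can be read. When each array was shifted so that housekeeping and ribosomal protein probe sets had equal medians, the median difference of all probe sets from control moved to 0.55 for NK1.1+ knockout and to 0.19 for NK1.1− knockout cells. Under that scaling the members' median difference from control was 0.093 in NK1.1+ knockout cells, and 9 of 16 member probe sets turned from lower to higher: those of Ski (2), Skil, Smad2, Smad4 (2), Smad7 (1443771_x_at) and Smurf2 (2). In NK1.1− knockout cells the same scaling turned only 1 of 16 member probe sets, that of Smad2. Calls over all probe sets in NK1.1+ knockout against control cells were 1582 higher and 4129 lower as deposited, 2487 and 2919 after quantile normalization, and 5814 and 1219 after the housekeeping scaling. In NK1.1− knockout against control cells they were 1205 higher and 1028 lower as deposited and 1465 and 537 after the housekeeping scaling. In NK1.1+ against NK1.1− knockout cells they were 1129 higher and 3753 lower as deposited, 1978 and 2271 after quantile normalization, and 3825 and 1029 after the housekeeping scaling.

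**Figure D2:**
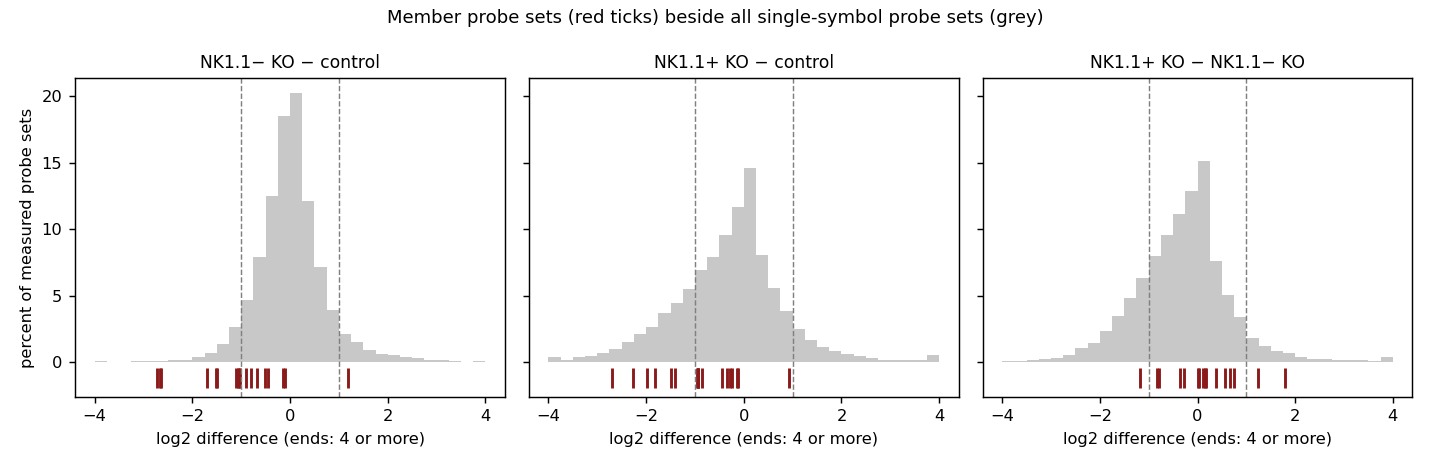
Distribution of log2 differences over all measured single-symbol probe sets (grey bars, percent of probe sets per bin of 0.25) with the member probe sets as red ticks, for NK1.1− knockout minus control, NK1.1+ knockout minus control and NK1.1+ knockout minus NK1.1− knockout. Dashed lines mark 2-fold. In the first panel 10 member ticks lie at or beyond the lower line, where 5.96% of all probe sets lie, and in the second 6 do, where 23% of all lie.

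Promoter sequence was examined to see whether letters known as SMAD contacts are present in the members. The table of RefSeq promoters (build GRCm38.p6, 250 bases before to 50 after an annotated start) held 5 of the 10 members: Smad3, Smurf1, Smurf2, Ski and Tgif1. Both strands were searched for the palindromic SMAD-binding element GTCTAGAC, for CAGAC and for the GC-rich element GGCGCC. Of 32851 promoters of this length in the table, 0.213% held the palindrome, 49.6% held CAGAC or its complement GTCTG and 11.9% held GGCGCC. The promoters of Smad3, Smurf1 and Smurf2 are shown with these shorter motifs, on either strand, in capitals. As deposited, Smad3 read above control and Smurf1 and Smurf2 below it in both knockout groups. These promoters lie on the minus strand at chr9:63757945-63758244, chr5:144965781-144966080 and chr11:106920666-106920965.
Smad3: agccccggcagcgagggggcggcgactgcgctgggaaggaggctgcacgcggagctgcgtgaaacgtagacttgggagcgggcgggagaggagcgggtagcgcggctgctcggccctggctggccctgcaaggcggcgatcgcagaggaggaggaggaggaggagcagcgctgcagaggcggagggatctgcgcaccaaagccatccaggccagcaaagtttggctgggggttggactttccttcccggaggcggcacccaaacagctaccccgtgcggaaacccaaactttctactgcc
Smurf1: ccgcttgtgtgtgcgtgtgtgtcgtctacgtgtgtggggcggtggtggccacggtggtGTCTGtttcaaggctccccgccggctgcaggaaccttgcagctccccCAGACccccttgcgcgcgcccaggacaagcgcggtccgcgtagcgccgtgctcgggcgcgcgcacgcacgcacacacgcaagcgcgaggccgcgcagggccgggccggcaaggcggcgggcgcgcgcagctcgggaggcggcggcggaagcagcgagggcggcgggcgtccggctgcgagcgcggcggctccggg
Smurf2: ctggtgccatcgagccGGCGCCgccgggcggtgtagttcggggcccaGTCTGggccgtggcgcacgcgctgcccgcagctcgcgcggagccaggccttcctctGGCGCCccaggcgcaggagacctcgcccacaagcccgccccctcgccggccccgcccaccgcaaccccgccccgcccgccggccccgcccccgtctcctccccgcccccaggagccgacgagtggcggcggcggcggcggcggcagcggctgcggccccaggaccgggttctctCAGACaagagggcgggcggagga
The Smad3 window held 0 of the 3 motifs, Smurf1 held CAGAC 2 times, and Smurf2 held CAGAC 2 times and GGCGCC 2 times. The Ski window held GGCGCC once and no CAGAC, and Ski also read below control as deposited. Of 5 annotated Tgif1 starts, 3 had CAGAC in their window. A match is a description of letters in this window and says nothing of binding or of the direction of a difference.

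Smad3 and Smad2 encode the SMADs that the receptor phosphorylates, and as deposited they differed in direction. The brightest Smad3 probe set, 1454960_at, read 754 in NK1.1+ knockout, 910.4 in NK1.1− knockout and 398 in control cells. Smad3 was thus 2.29-fold higher in NK1.1− knockout than in control cells (log2 difference 1.19) and 1.89-fold higher in NK1.1+ knockout than in control cells (0.92). It stayed higher than control under every scaling tried, with log2 differences of 1.22 and 1.40 in NK1.1− knockout and of 1.16 and 1.95 in NK1.1+ knockout cells after quantile normalization and housekeeping scaling. Of all measured probe sets, 5.27% were at least as far above control in NK1.1− knockout cells. The other Smad3 probe sets, 1450471_at and 1450472_s_at, were below the level on every array, so Smad3 rests on 1 probe set.

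The Smad2 probe set 1420634_a_at, whose suffix marks a set that reads several transcripts of the gene, gave 147 in NK1.1+ knockout, 261 in NK1.1− knockout and 282 in control cells. In NK1.1− knockout cells Smad2 stood within 1.08-fold of control, and in NK1.1+ knockout cells it was 1.91-fold lower (log2 difference -0.94, and 0.094 after housekeeping scaling). The other Smad2 probe set was below the level throughout, at 7.52 to 8.84.

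Smad4 encodes the partner shared by the receptor-activated SMADs of the TGF-β and BMP branches. Its bright probe set 1422486_a_at read 2275 in NK1.1+ knockout, 1531 in NK1.1− knockout and 2455 in control cells. Probe set 1422487_at read 1772 in NK1.1+ knockout, 1587 in NK1.1− knockout and 2261 in control cells. These bright sets lay under the 2-fold line, with log2 differences from control of -0.11 and -0.35 in NK1.1+ knockout and of -0.68 and -0.51 in NK1.1− knockout cells. In NK1.1+ knockout cells both were above control after housekeeping scaling (0.92 and 0.68), and the first also after quantile normalization (0.0092). The dimmer 1422485_at read 49.2 in NK1.1+ knockout, 84.8 in NK1.1− knockout and 173 in control cells. By this set Smad4 was 3.52-fold lower in NK1.1+ knockout and 2.04-fold lower in NK1.1− knockout cells than in control cells, and under 2-fold lower in each after housekeeping scaling (log2 differences of -0.78 and -0.82). The 3 Smad4 probe sets therefore spread over 1.71 on the log2 scale in NK1.1+ knockout against control cells and over 0.52 in NK1.1− knockout against control cells. Over all genes with several measured probe sets, differences of a gene's probe sets from control varied with a pooled SD of 0.89 in NK1.1+ knockout and 0.46 in NK1.1− knockout cells.

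Smad7, the inhibitory SMAD of the feedback loop, was among the members farthest below control. Its brightest probe set, 1423389_at, read 33.4 in NK1.1+ knockout, 25.7 in NK1.1− knockout and 162 in control cells. That is 6.31-fold lower in NK1.1− knockout cells (log2 difference -2.66), where 0.371% of all probe sets were at least as far below control. In NK1.1+ knockout cells it was 4.85-fold lower (log2 difference -2.28), where 4.4% of all were, and the difference was -1.83 after quantile normalization and -1.25 after housekeeping scaling. The second Smad7 probe set, 1443771_x_at, carries a suffix for probes that may also bind other transcripts, and read 60.8 in NK1.1+ knockout, 25.7 in NK1.1− knockout and 73.5 in control cells. By this set Smad7 was 2.86-fold lower than control in NK1.1− knockout cells and 1.21-fold lower in NK1.1+ knockout cells, and in NK1.1+ knockout cells it was higher than control after quantile normalization (0.21) and housekeeping scaling (0.76). The probe sets thus show Smad7 low in NK1.1− knockout cells in either reading, and are at odds over its level in NK1.1+ knockout cells.

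Smurf1 and Smurf2 encode the related ubiquitin ligases that SMAD7 brings to the receptor. Smurf1 was dim, with 15.01 in NK1.1+ knockout, 19.4 in NK1.1− knockout and 39.7 in control cells by probe set 1428395_at, and its other probe set was below the level on every array. Smurf1 was 2.64-fold lower in NK1.1+ knockout cells and 2.05-fold lower in NK1.1− knockout cells than in control cells. The difference in NK1.1− knockout cells was under 2-fold after quantile normalization (-0.98) and after housekeeping scaling (-0.83), and that in NK1.1+ knockout cells after housekeeping scaling (-0.37).

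Smurf2 was measured by 3 probe sets, each highest on the control array. The brightest, 1454894_at, read 346 in NK1.1+ knockout, 320.3 in NK1.1− knockout and 667 in control cells. Probe set 1429045_at read 169 in NK1.1+ knockout, 106 in NK1.1− knockout and 199 in control cells, and 1429046_at read 13.6 in NK1.1+ knockout, 13.4 in NK1.1− knockout and 38.0 in control cells. Against control, the 3 sets were 1.87-fold to 2.83-fold lower in NK1.1− knockout cells and 1.18-fold to 2.80-fold lower in NK1.1+ knockout cells. All 3 remained below control in NK1.1− knockout cells under both scalings. In NK1.1+ knockout cells 1429045_at was above control under both (0.16 and 0.79), and 1454894_at was above it after the housekeeping scaling (0.082).

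Pmepa1 encodes a membrane protein that binds receptor-activated SMADs and ubiquitin ligases. Its brightest probe set, 1422706_at, read 17.6 in NK1.1+ knockout, 17.2 in NK1.1− knockout and 114 in control cells, so both receptor-deficient groups lay close together and near the detection level. Pmepa1 was 6.45-fold lower in NK1.1+ knockout and 6.59-fold lower in NK1.1− knockout than in control cells. It was also lower under both scalings, with log2 differences of -2.36 and -1.66 in NK1.1+ knockout and of -2.67 and -2.51 in NK1.1− knockout cells. Of all probe sets, 0.33% were at least as far below control in NK1.1− knockout cells and 2.35% in NK1.1+ knockout cells. Probe set 1452295_at passed the level only in control cells, at 11.4 against 7.42 in NK1.1+ knockout and 9.52 in NK1.1− knockout cells, which leaves no room for a large difference below it. The Pmepa1 probe set 1422705_at was below the level everywhere, with its highest value, 10.2, in control cells.

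**Figure D3:**
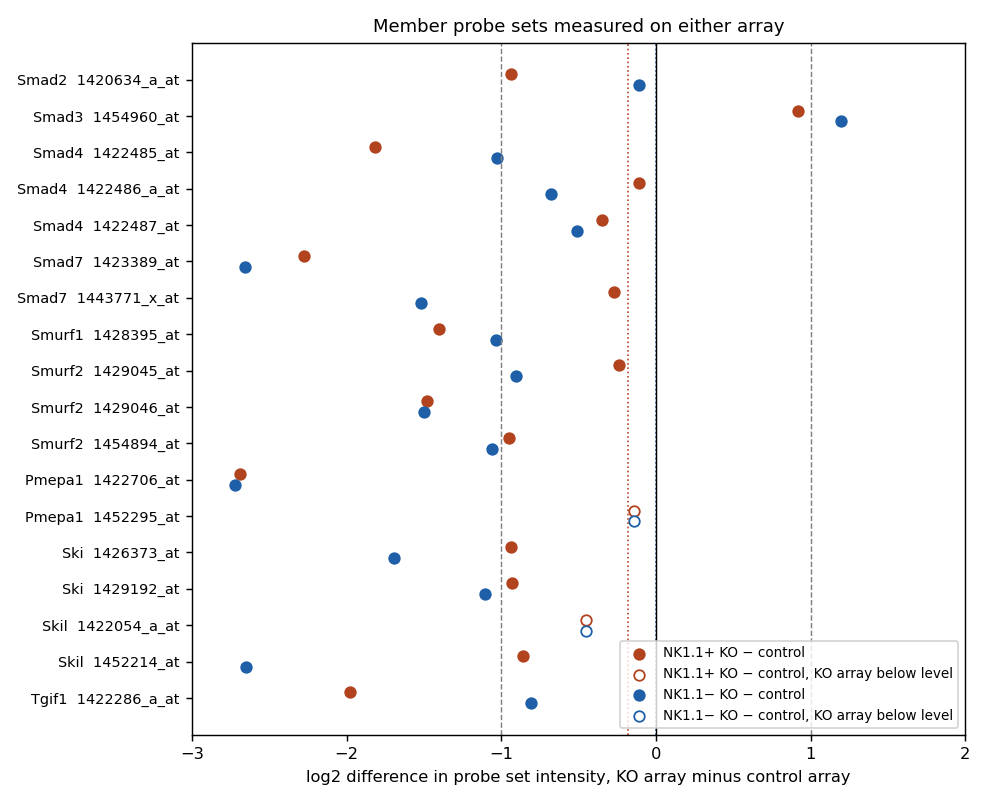
Log2 difference in intensity from the control array (horizontal axis) for the 18 member probe sets measured on at least 1 of the arrays compared, NK1.1+ knockout in red above NK1.1− knockout in blue. Open circles have the knockout array below the detection level, grey dashed lines mark 2-fold, and dotted lines the medians of all probe sets (-0.18 for NK1.1+ knockout and 0.0027 for NK1.1− knockout). Pmepa1 1422706_at, Smad7 1423389_at and Skil 1452214_at lie farthest left for NK1.1− knockout, and Smad3 alone lies right of 0.

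Ski and Skil encode the related corepressors SKI and SnoN, which recruit histone deacetylase complexes to SMADs. Ski probe set 1426373_at read 81.7 in NK1.1+ knockout, 48.4 in NK1.1− knockout and 156 in control cells, and 1429192_at read 74.9 in NK1.1+ knockout, 66.5 in NK1.1− knockout and 143 in control cells. Both sets placed Ski below control, by 3.23-fold and 2.15-fold in NK1.1− knockout cells and by 1.91-fold each in NK1.1+ knockout cells. Their log2 differences in NK1.1+ knockout cells of -0.94 and -0.93 became 0.093 and 0.097 after housekeeping scaling.

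Skil is a direct target of SMAD complexes in many cell types. Its bright probe set 1452214_at read 1095 in NK1.1+ knockout, 316 in NK1.1− knockout and 1983 in control cells. Skil was 6.28-fold lower in NK1.1− knockout than in control cells (log2 difference -2.65) and 1.81-fold lower in NK1.1+ knockout than in control cells (-0.86, and 0.17 after housekeeping scaling). The dim 1422054_a_at passed the level only in control cells, at 14.1 against 7.08 in NK1.1+ knockout and 9.64 in NK1.1− knockout cells.

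Tgif1 encodes a homeodomain corepressor that competes with coactivators for SMAD2. Its single probe set, 1422286_a_at, read 22.3 in NK1.1+ knockout, 50.2 in NK1.1− knockout and 87.9 in control cells. Tgif1 was 3.95-fold lower in NK1.1+ knockout than in control cells, where 6.93% of all probe sets were at least as far below control. It was 1.75-fold lower in NK1.1− knockout cells, under the 2-fold line. It was below control under both scalings in both groups, by log2 differences of -1.58 and -0.95 in NK1.1+ knockout cells and of -0.84 and -0.60 in NK1.1− knockout cells.

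Within the receptor-deficient cells, the member calls between the NK1.1+ and the NK1.1− fraction were those of Skil, Smad7 and Tgif1 as deposited. Of 16 member probe sets measured on either array, 2 were at least 2-fold higher in NK1.1+ knockout cells, where 6.32% of 17877 probe sets were, and 1 was at least 2-fold lower, where 21% were (27.3% in either direction). The members' median log2 difference was 0.13, beside -0.24 over all probe sets. Skil 1452214_at was 3.47-fold higher in NK1.1+ knockout than in NK1.1− knockout cells, where 2.27% of all were at least as far above. Its log2 difference of 1.79 became 2.05 after quantile normalization and 2.62 after housekeeping scaling. Smad7 was 2.37-fold higher in NK1.1+ knockout cells by 1443771_x_at and 1.30-fold higher by 1423389_at. Tgif1 was 2.25-fold lower in NK1.1+ knockout cells, and under 2-fold after quantile normalization (log2 difference -0.74) and housekeeping scaling (-0.35). Ski 1426373_at and Smurf2 1429045_at, with log2 differences of 0.75 and 0.67 as deposited, were at least 2-fold higher in NK1.1+ than in NK1.1− knockout cells after quantile normalization (1.22 and 1.1001) and housekeeping scaling (1.58 and 1.49). Smad4 1422486_a_at (1.40) and Smad7 1423389_at (1.21) were so after the housekeeping scaling. Pmepa1 1422706_at was within 1.02-fold between the fractions as deposited, and its log2 difference was 0.30 and 0.85 under the same scalings. The higher Skil and Smad7 readings came from the NK1.1+ knockout array. On it, 4 of 7 measured markers of monocytes, macrophages and granulocytes were at least 2-fold higher than in NK1.1− knockout cells. A further 7 were below the level on every array. Of the 4, Csf1r and Lyz2 read 7666 and 541, against 54.5 and 23.4 in NK1.1− knockout cells. The part of other cells in the Skil and Smad7 readings was not tested.

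The remaining genes of the pathway were described by 6 lists of 80 names, of which 75 were on the array, each gene by its brightest probe set. Over all genes, 5.58% were at least 2-fold lower and 8.08% higher in NK1.1− knockout than in control cells, and 23% lower and 9.79% higher in NK1.1+ knockout than in control cells. The lists were chosen with earlier results of these data known. Members of several lists are counted in each. After the housekeeping scaling the list medians against control in NK1.1+ knockout cells were 0.32 for receptors and ligands, 0.76 for other inhibitors, 0.44 for ubiquitin ligases and deubiquitinases, 1.51 for nuclear cofactors and 0.16 for genes induced by TGF-β. In NK1.1− knockout cells the same medians were -0.85, 0.13, 0.12, 0.11 and -0.090, and 7 receptors and ligands and 12 TGF-β-induced genes stayed measured under that scaling, against 10 and 15 as deposited.

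The SMADs outside the group were Smad1 and Smad5, which carry BMP signals, with Smad6 and Smad9 below the level on every array. Smad5 read 75.9 in NK1.1+ knockout, 106 in NK1.1− knockout and 239.8 in control cells, which is 3.16-fold lower in the NK1.1+ and 2.27-fold lower in the NK1.1− cells. Smad1 read 271 in NK1.1+ knockout, 459 in NK1.1− knockout and 711 in control cells, which is 2.62-fold lower in the NK1.1+ and 1.55-fold lower in the NK1.1− cells. A second Smad1 probe set gave log2 differences from control of -0.16 in NK1.1+ knockout and -1.01 in NK1.1− knockout cells, the other order of the groups. A second Smad5 probe set was above control, by log2 differences of 0.26 in NK1.1+ knockout and 0.34 in NK1.1− knockout cells. After housekeeping scaling 0 of the differences of the brightest sets from control reached 2-fold.

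Of 10 measured receptors and ligands, 4 were at least 2-fold lower in NK1.1− knockout than in control cells and 0 higher, and in NK1.1+ knockout cells 2 were lower and 2 higher. The 4 were Tgfbr3, Acvr1b, Bmpr2 and the targeted gene Tgfbr2 itself, at a log2 difference of -1.05. After housekeeping scaling 2 of 7 measured were lower in NK1.1− knockout than in control cells, where 3.58% of all probe sets were. Tgfbr3, which encodes the co-receptor betaglycan, read 71.1 in NK1.1+ knockout, 188 in NK1.1− knockout and 1034 in control cells. Acvr1b, which encodes an activin type I receptor that also phosphorylates SMAD2 and SMAD3, read 64.7 in NK1.1+ knockout, 62.2 in NK1.1− knockout and 313 in control cells. Tgfbr3 and Acvr1b were far below control in both groups. Bmpr2, a BMP type II receptor gene, read 184 in NK1.1+ knockout, 77.7 in NK1.1− knockout and 166 in control cells. Bmpr1a, a BMP type I receptor gene, read 67.8 in NK1.1+ knockout, 37.5 in NK1.1− knockout and 24.3 in control cells.

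Of 10 measured other inhibitors and adaptors of receptor or SMAD signalling, 1 was at least 2-fold lower in NK1.1− knockout than in control cells and 0 higher, with a median log2 difference of -0.071. That gene was Ldlrad4, a relative of Pmepa1, at 8.25 in NK1.1+ knockout and 9.03 in NK1.1− knockout, both below the level, against 21.0 in control cells, at least 2.03-fold lower in each. Tgif2, the relative of Tgif1, read 27.5 in NK1.1+ knockout, 30.5 in NK1.1− knockout and 57.2 in control cells. Trim33, a ubiquitin ligase gene for SMAD4, was within 1.35-fold of control in both by its brightest probe set. Another Trim33 probe set gave a log2 difference of -0.57 in NK1.1− knockout against control cells. Of 12 measured in NK1.1+ knockout or control cells, 3 were lower than control and 1 higher. Strap, whose product holds SMAD7 at the receptor, was 2.79-fold lower in NK1.1+ knockout than in control cells, with another probe set at a log2 difference of 0.32. Zfyve9, which encodes the adaptor SARA, was measured in NK1.1+ knockout cells alone, at 46.0, and was at least 4.45-fold higher than in control cells.

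Of 14 further ubiquitin ligases and deubiquitinases that act on SMADs or receptors, 1 was at least 2-fold lower in NK1.1− knockout than in control cells and 0 higher. That was Nedd4l, a ubiquitin ligase gene for activated SMAD2 and SMAD3. It read 19.4 in NK1.1+ knockout, 10.09 in NK1.1− knockout, which is below the level, and 28.7 in control cells. Another Nedd4l probe set gave log2 differences from control of -2.70 in NK1.1+ knockout and -2.57 in NK1.1− knockout cells. Nedd4 was 1.48-fold higher in NK1.1− knockout than in control cells, with another probe set at a log2 difference of -0.59, and Stub1 was 1.59-fold lower. In NK1.1+ knockout against control cells 4 of 14 were lower and 1 higher. Farthest below control were Usp15 (8.13-fold), Wwp2 (4.75-fold) and Stub1 (3.27-fold) by their brightest probe sets. Another probe set of Usp15 differed by 0.85, another Wwp2 set by 0.10 and another Stub1 set by -0.44 on the log2 scale.

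Of 13 measured nuclear cofactors of SMADs, 1 was at least 2-fold higher in NK1.1− knockout than in control cells and 0 lower. That was Runx3, which encodes a runt-domain factor of CD8 T cells that partners SMADs, at 1286 in NK1.1+ knockout, 963 in NK1.1− knockout and 357 in control cells. Runx1 was 1.66-fold higher in NK1.1− knockout than in control cells, with other probe sets at log2 differences from -0.18 to 1.27. Hdac2, a histone deacetylase gene, was 1.85-fold lower in NK1.1− knockout than in control cells. In NK1.1+ knockout against control cells 4 were higher and 3 lower, with Runx3 3.61-fold and Ctbp2, a corepressor gene, 3.50-fold higher and Hdac2 4.21-fold lower. Of the other Hdac2 probe sets, 1 was above control in NK1.1+ knockout cells (log2 difference 1.22) and 1 below it (-3.16).

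Of 15 measured genes reported to be induced by TGF-β in some cell type, 5 were at least 2-fold lower and 4 higher in NK1.1− knockout than in control cells, and 5 lower and 6 higher in NK1.1+ knockout than in control cells. Itgae, which encodes the αE integrin, read 21.4 in NK1.1+ knockout, 44.6 in NK1.1− knockout and 444 in control cells. Bhlhe40, a transcription factor gene also induced by T cell activation, read 718 in NK1.1+ knockout, 778 in NK1.1− knockout and 29.9 in control cells. Cdkn1a, which encodes the cell cycle inhibitor p21, read 24.9 in NK1.1+ knockout, 98.3 in NK1.1− knockout and 10.4 in control cells, with another probe set at a log2 difference of 0.14 in NK1.1− knockout against control cells. Tgfbi, a matrix protein gene also used by macrophages, read 762 in NK1.1+ knockout, 15.4 in NK1.1− knockout and 7.19 in control cells. Low and high values thus stood side by side in this list, while 9 of the 10 members read below control by their brightest probe set in each receptor-deficient group as deposited, where 58.8% of all genes did in NK1.1+ and 48.4% in NK1.1− knockout cells.

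**Figure D4:**
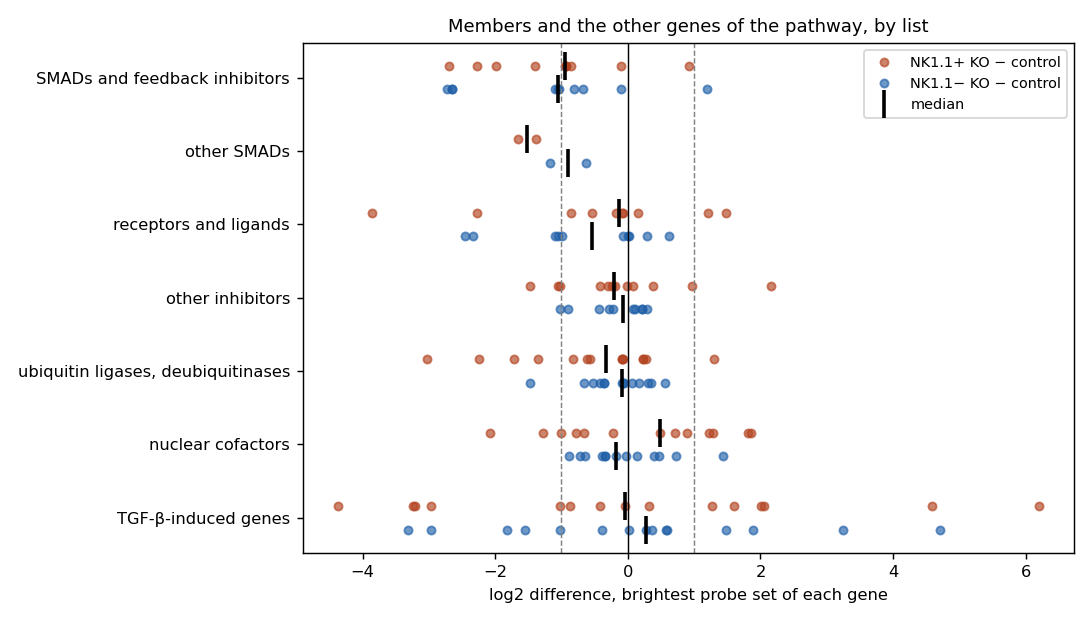
Log2 difference from control (horizontal axis) of the 10 members and of the genes of 6 other pathway lists, each dot a gene by its brightest probe set, NK1.1+ knockout in red above NK1.1− knockout in blue, with black bars for medians. Dashed lines mark 2-fold. The members' medians are -0.94 for NK1.1+ knockout and -1.05 for NK1.1− knockout, while those of other inhibitors are -0.22 and -0.071 and those of ubiquitin ligases and deubiquitinases -0.32 and -0.083.

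Genes with values most like Smad7, Pmepa1 and Skil, the 3 members farthest below control in NK1.1− knockout cells, were sought among 8661 genes measured on all arrays, by the distance over the 2 log2 differences from control. Nearest to Smad7 were Sox4 (distance 0.25), Usp28 (0.31) and Inpp4b (0.31), nearest to Pmepa1 were Cxxc5 (0.026), Cnr2 (0.19) and Inpp4b (0.20), and nearest to Skil were Slc4a1 (0.42), Znrf3 (0.54) and Rgmb (0.55). Sox4, which encodes a transcription factor, read 107 in NK1.1+ knockout, 102 in NK1.1− knockout and 612 in control cells. Cxxc5, which encodes a zinc finger protein, read 30.0 in NK1.1+ knockout, 29.4 in NK1.1− knockout and 191 in control cells. Within a distance of 0.5 lay 9 genes for Smad7, 9 for Pmepa1 and 1 for Skil. These distances rest on 3 arrays and describe likeness of values only.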

How the data were processed

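RNA of 3 samples, 1 per group by the sample titles, was hybridised to Affymetrix mouse expression arrays. The authors deposited 1 linear intensity per probe set and array, between 2.60 and 55467.7 outside the array controls, and the submitters' processing notes name GCRMA 1.1.3, whose settings no label gives. From the deposited intensity, log2 values were taken with Python 3.11.15, numpy 2.4.6 and pandas 2.3.3. Of 45101 probe sets, 64 are controls, 34945 have 1 symbol in the platform annotation, 932 several and 9160 none. All 10 members matched a RefSeq gene of GRCm38.p6 by identifier. Log2 differences of at least 1 (2-fold) were called, with no test and no p-value. Genes were named by rule: all members, the 3 genes per list and knockout comparison farthest from control, and the 3 nearest genes. The members and lists were chosen with earlier results of these data known. The call rule was tested on simulated data with changes put only on probe sets well above the level. That test says nothing of changes in dim probe sets or of variation between animals. Other levels, offsets, scalings, probe set choices and fold limits were tried. Planned protein features were not computed, as no protein table was used here.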

Additional observations from a re-analysis of the deposited data

How the results depend on the processing

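The counts of member probe sets past 2-fold moved with several choices. The comparisons, in order, were NK1.1− knockout against control, NK1.1+ knockout against control and NK1.1+ against NK1.1− knockout cells. As deposited their calls were 11 of 18, 6 of 18 and 3 of 16 measured, beside 12.9%, 31.8% and 27.3% of all probe sets. Raising the detection level to 73.4, the 75th percentile over all probe sets, gave 6 of 14, 2 of 14 and 1 of 10, beside 10.1%, 26.8% and 21.2%. An offset of 32 in place of a level gave 5 of 18 in the first comparison, beside 5.85% of all probe sets. In the third it gave 1 of 16, beside 13.4%. Scaling on housekeeping and ribosomal protein genes gave 7, 3 and 6 calls, each of 16, beside 13.3%, 37.4% and 25.8% of all probe sets. It left median member differences of 0.093 in the second comparison and 0.96 in the third, beside 0.55 and 0.38 over all. It ended the calls against control of Smad4 1422485_at (-0.82), Smurf1 1428395_at (-0.83), Smurf2 1454894_at (-0.85) and Ski 1429192_at (-0.90) in NK1.1− knockout cells and of Tgif1 (-0.95), Smad4 1422485_at (-0.78), Smurf1 1428395_at (-0.37) and Smurf2 1429046_at (-0.45) in NK1.1+ knockout cells. Plain _at probe sets alone gave 1 of 12 in the third, beside 27.3% of all such sets. A 1.5-fold limit gave 12 of 18 in the second, 11 lower and 1 higher, beside 35.1% and 16.1% of all. In the third it gave 7 of 16, 3 lower and 4 higher, beside 35.3% and 12.7%. Of the 20 calls, those of Smad7 1423389_at (2 comparisons), Ski 1426373_at, Skil 1452214_at (2 comparisons) and Smad3 1454960_at remained under all 8 alternatives that kept the 2-fold limit. Smad7 1423389_at ranged from -2.66 to -1.14 in NK1.1− knockout against control cells and Skil 1452214_at from -2.72 to -2.45. Pmepa1 1422706_at was lost under the 75th percentile level alone, at -0.63. A level without the Crybg genes (9.59) and the restriction to probe sets measured on all arrays were chosen after seeing the data and left the counts of calls at 11, 6 and 3. Without the Crybg genes 19, 19 and 17 member probe sets were measured, and 5.89%, 22.5% and 20.5% of all were lower and 6.9%, 8.72% and 6.29% higher. With the restriction 16 were measured, and 5.02%, 23.8% and 22.2% of all were lower and 6.77%, 7.35% and 4.73% higher. Averaging a gene's probe sets in place of the brightest gave -1.43 for Pmepa1, -2.09 for Smad7 and -1.55 for Skil in NK1.1− knockout against control cells. Signal near the detection level limits Smurf1, Pmepa1 and the dim sets of Smad2, Smad3 and Skil. Leaving out a replicate was not possible with 1 array per group. No paired analysis was possible because each group has 1 array.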
